A study of Mus musculus with 6 samples.

Results

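The genes described here are 10 scaffold genes of the excitatory postsynapse: Shank1, Shank2 and Shank3, Homer1, Homer2 and Homer3, Dlg4, and Dlgap1, Dlgap2 and Dlgap3. They are 10 of the 35976 genes in the count tables and were chosen by name, as members of connected protein families. The choice was made with their measured counts in the comparison of sgEgfr with sgRosa already known. Their values in that comparison are therefore a description of these libraries, and the test results printed beside them support nothing further.

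RNA-seq was run on neurons isolated from amygdala tissue, and the mice were C57BL/6J males. In every animal an AAV, a viral vector, had delivered Cas9 under the GfaABC1D promoter, a promoter active in astrocytes, so the guide RNAs were meant to act in astrocytes and not in the neurons that were sequenced. The 3 sgEgfr libraries (genotype label sgEgfrAstro) carried guides to Egfr, the epidermal growth factor receptor. The 3 sgRosa libraries (genotype label sgRosa26) carried control guides to Rosa. Both groups shared more than 2 weeks of vector expression, 7 days of restraint in a tube, fear conditioning (1 day) and its extinction (3 days), so no unstressed animals enter the comparison. The age of the mice is not given, and the labels do not say whether each library came from its own animal. The p-values then measure the spread between these libraries, which may be technical.

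Scaffold proteins of the postsynaptic density hold glutamate receptors opposite the site of transmitter release. Dlg4 encodes PSD-95, which binds NMDA receptor tails and, through auxiliary subunits, AMPA receptors. The Dlgap proteins (SAPAP or GKAP) bind PSD-95 on one side and Shank proteins on the other. Shank proteins in turn bind Homer, whose coiled-coil assemblies reach metabotropic glutamate receptors and the calcium-release channels of the endoplasmic reticulum.

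The links of that chain can be read in the coding sequence, which is why the following stretches are shown. They were read from the longest coding transcripts of GENCODE M21 (GRCm38, 5′ to 3′ on the coding strand). In the 3 Shank genes the capitals mark the 5 codons of the proline-rich ligand for the EVH1 domain of Homer, at codons 1575 to 1579 of 2167 in Shank1, 1403 to 1407 of 1841 in Shank2 and 1384 to 1388 of 1805 in Shank3. Shank2 and Shank3 held 2 matches each to the searched pattern and Shank1 held 1. The match printed is, in each of the 3 genes, the one with the codon aat among the lower-case codons after it.
Shank1: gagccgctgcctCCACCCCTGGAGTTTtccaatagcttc
Shank2: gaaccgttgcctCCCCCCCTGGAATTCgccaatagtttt
Shank3: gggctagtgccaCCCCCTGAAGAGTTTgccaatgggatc

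The 3 Dlgap genes end in the ligand for the PDZ domain of Shank. Here the capitals mark the last 4 codons and the stop codon, and the 3 genes encode the same 4 final residues with different codons.
Dlgap1: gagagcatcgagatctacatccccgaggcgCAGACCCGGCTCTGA
Dlgap2: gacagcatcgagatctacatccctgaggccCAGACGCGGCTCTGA
Dlgap3: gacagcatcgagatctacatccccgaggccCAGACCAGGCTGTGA

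The libraries held between 2348897 and 10152812 counts, and 3 counts corresponded to between 0.270 and 1.25 CPM, the reads of a gene scaled to a common library size with TMM factors. No 2 libraries agreed within sampling noise (lowest chi-square per degree of freedom 9.996). Pan-neuronal genes were present in every library, with summed levels of 2975 to 7332 CPM in sgRosa and 4159 to 6713 CPM in sgEgfr. Markers of oligodendrocytes, the myelinating glia, summed to 24063 to 70501 CPM in sgRosa and 22230.5 to 56803 CPM in sgEgfr. That exceeded the pan-neuronal sum in every library, so the RNA was not from neurons alone. Sums over different genes do not measure the share of each cell type. In bulk RNA, fewer neurons and less RNA per neuron cannot be told apart. For that reason each scaffold level was also expressed relative to the pan-neuronal level, as its log2 CPM minus that of 16 pan-neuronal genes averaged in the same library. The pan-neuronal average was 6.75, 6.74 and 7.90 over the sgRosa libraries, always given in the order of their replicate numbers, and 7.71, 7.23 and 7.96 over the sgEgfr libraries. sgRosa replicates 1 and 2 thus had the lowest pan-neuronal average, and sgRosa replicate 3 lay with the sgEgfr libraries. Not every neuronal list ran this way. Inhibitory-neuron markers had their highest mean log2 CPM in sgRosa replicates 1 and 2 (4.45 and 4.77), against 2.86 to 3.68 in the other libraries. Egfr itself had 1, 26 and 23 counts in sgRosa and 6, 18 and 6 in sgEgfr, too few in neuron-enriched RNA to check the labels, and a cut in astrocytes need not show there.

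All 10 scaffold genes passed the filter on low counts. The summed scaffold level was 662, 688 and 1976 CPM in sgRosa and 2082, 1230.4 and 1822 CPM in sgEgfr, following the pan-neuronal level: sgRosa replicates 1 and 2 were lowest for both. Of the 10 genes, 9 had a positive log2 fold change (sgEgfr over sgRosa) and 1 a negative one, with a median of 0.42 (1.04 without sgRosa replicate 3). Of the 13159 genes tested, 6094 were positive and 7065 negative, with a median of -0.04. The 16 pan-neuronal genes had a median of 0.41, with all 16 positive. Relative to the pan-neuronal genes the median scaffold difference was 0.07, against -0.50 over all tested genes.

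With edgeR's quasi-likelihood test, 0 of the 10 scaffold genes passed an adjusted p of 0.05, beside 0 of all 13159 tested (0%). The smallest adjusted p of that edgeR test over all genes was 0.781, and 811 genes had an unadjusted p under 0.05. With DESeq2, 1 scaffold gene, Shank1, was called higher, beside 31 of the 8045 genes with a defined adjusted p (0.385%). DESeq2 gave 787 genes an unadjusted p under 0.05. Shank1 was also the 1 scaffold gene whose groups did not overlap in CPM, higher in sgEgfr, where 5.8% of tested genes did the same. None of the 10 was lower without overlap, beside 7.6% of tested genes.

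**Figure D1:**
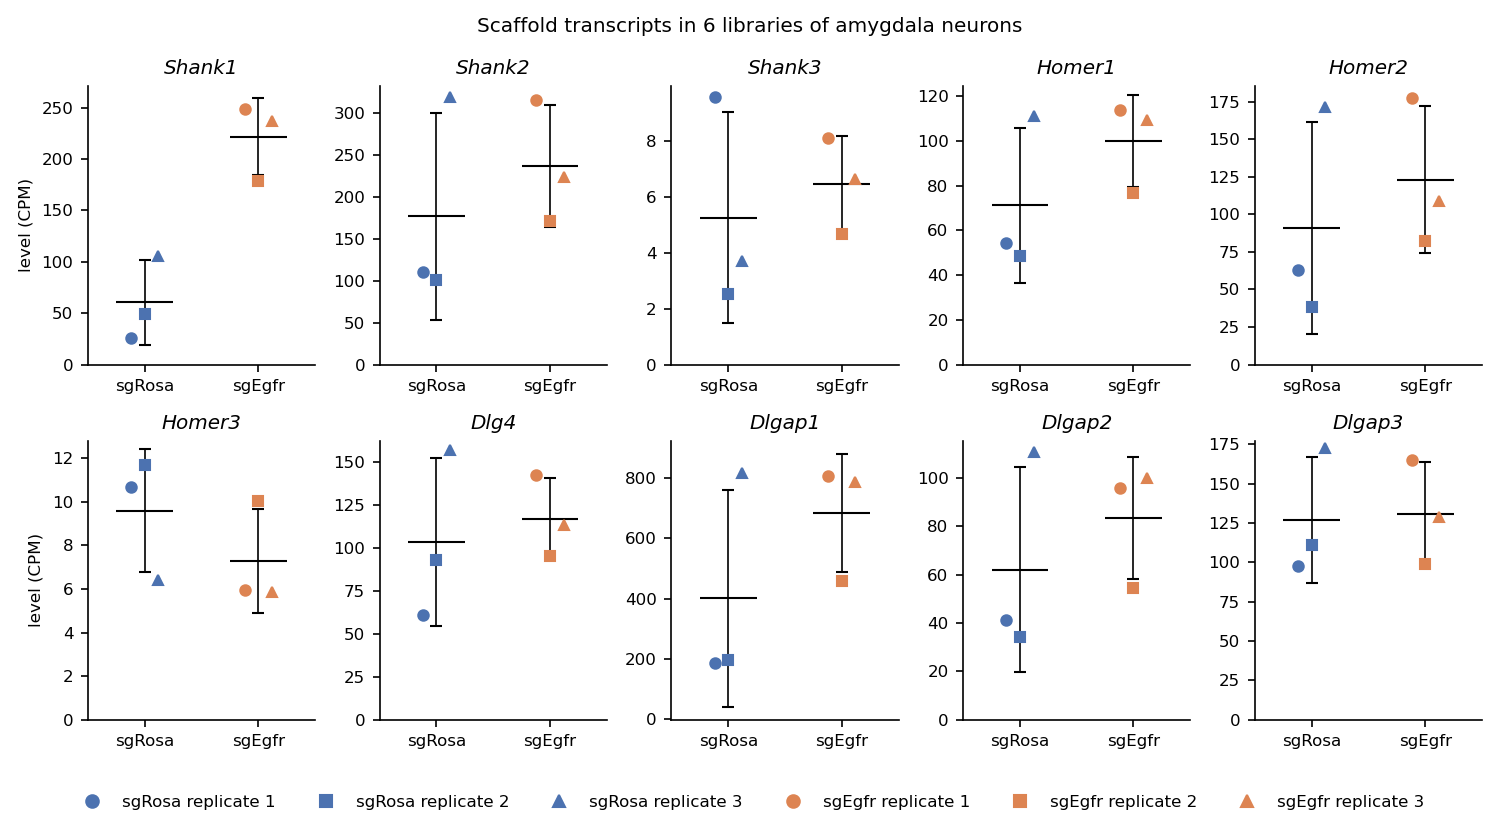
Levels of the 10 scaffold genes in CPM (linear axes from 0, one panel per gene). Points are libraries, horizontal lines the means and vertical bars 1 SD (n = 3 per group). Only for Shank1 do all sgEgfr points (179 to 249 CPM) lie above all sgRosa points (26.2 to 106 CPM).

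Shank1 encodes the largest of the Shank platforms that join the Dlgap layer to Homer, and it lies on chromosome 7 at 44310253 to 44360572 on the plus strand (GRCm38). Its level was 26.2, 49.3 and 106 CPM in sgRosa and 249, 179 and 237 CPM in sgEgfr. Every sgEgfr library was above every sgRosa library, and sgRosa replicate 3, the sgRosa library with the highest pan-neuronal average, came closest. sgRosa replicate 1, the lowest for Shank1, also stood apart in its share of mitochondrial counts, 29.8% against 10.3% to 15.7% in the other 5 libraries. Leaving it out gave a log2 fold change of 1.53 for Shank1, and the part of RNA quality was otherwise not tested. Mean Shank1 CPM was 60.5 ± 41.2 for sgRosa against 222 ± 37.4 for sgEgfr (SD, n = 3 each). The fitted log2 fold change was 1.87 (SE 0.48, a 3.65-fold difference), with an adjusted p of 0.781 in edgeR and 0.0381 in DESeq2. The call therefore depended on the tool. Leaving out sgRosa replicate 3 gave a value of 2.56 on the same scale. Underlying counts were 93, 118 and 1179 in sgRosa and 1169, 803 and 608 in sgEgfr.

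Relative to the pan-neuronal genes, Shank1 stood at -2.02, -1.10 and -1.16 in sgRosa and at 0.26, 0.26 and -0.07 in sgEgfr (log2). In CPM, which is not corrected for length, Shank1 was well below the average pan-neuronal gene in sgRosa and level with it in sgEgfr. Only the change between libraries can be read from this scale. The difference of the relative means was 1.58 (2.98-fold), from -1.43 ± 0.51 to 0.15 ± 0.19 (SD, n = 3 each). The groups did not overlap for Shank1, as for 0.745% of tested genes in this direction, while none of the 10 was lower without overlap on this scale, beside 7.45% of tested genes. Counting Shank1 itself, 11 of 13159 tested genes had a relative difference at least as high. Against 12 excitatory-neuron markers in place of the pan-neuronal genes the difference was 1.00, with values of 2.05, 2.58 and 1.43 in sgRosa and 2.99, 3.36 and 2.69 in sgEgfr, which again did not overlap. The excitatory markers averaged 2.68, 3.06 and 5.30 log2 CPM in sgRosa and 4.97, 4.12 and 5.20 in sgEgfr, overlapping between groups and highest in sgRosa replicate 3, where Shank1 was below every sgEgfr library. Their part in its difference beyond this value was not tested.

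**Figure D2:**
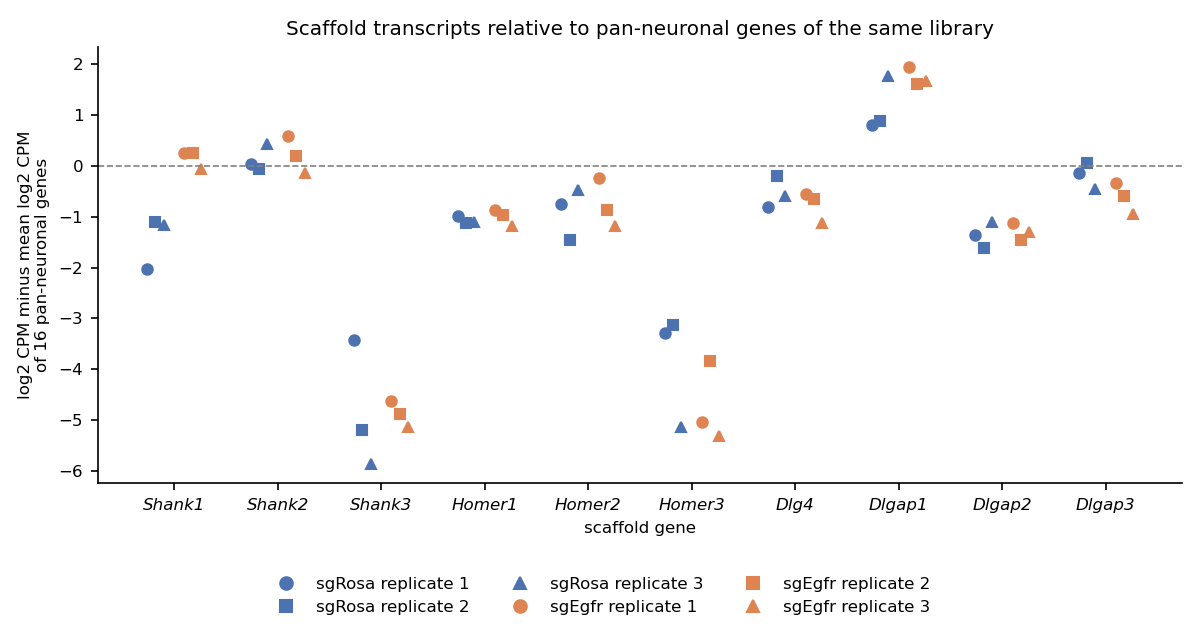
Level of each scaffold gene relative to the pan-neuronal genes (vertical axis, log2 CPM minus the pan-neuronal average of the same library), 1 point per library. Shank1 separates into sgRosa (-2.02 to -1.10) and sgEgfr (-0.07 to 0.26), while for each of the other 9 genes the groups overlap.

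A ratio of counts of 2 genes in the same library needs no scaling. The number of Shank1 reads per Shank2 read was 0.237, 0.486 and 0.332 in sgRosa and 0.789, 1.05 and 1.06 in sgEgfr. Per Dlg4 read it was 0.431, 0.529 and 0.675 in sgRosa and 1.75, 1.88 and 2.09 in sgEgfr. Per Homer1 read it was 0.482, 1.02 and 0.955 in sgRosa and 2.19, 2.34 and 2.16 in sgEgfr. For these 3 partners the lowest sgEgfr ratio was well above the highest sgRosa ratio. The Shank1 ratio was higher in sgEgfr without overlap against 9 of 9 other scaffold genes, beside 77.9% of the other 13158 tested genes. The separation was narrow against the thinly counted genes: 28.8 at most in sgRosa and 30.8 at least in sgEgfr for Shank3, and 16.6 and 17.8 for Homer3. Each of the other scaffold genes had a higher ratio without overlap against at most 1 of its 9 partners. Beside this stood 0.547% (Homer3) to 11.7% (Homer1) of the other 13158 tested genes.

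**Figure D3:**
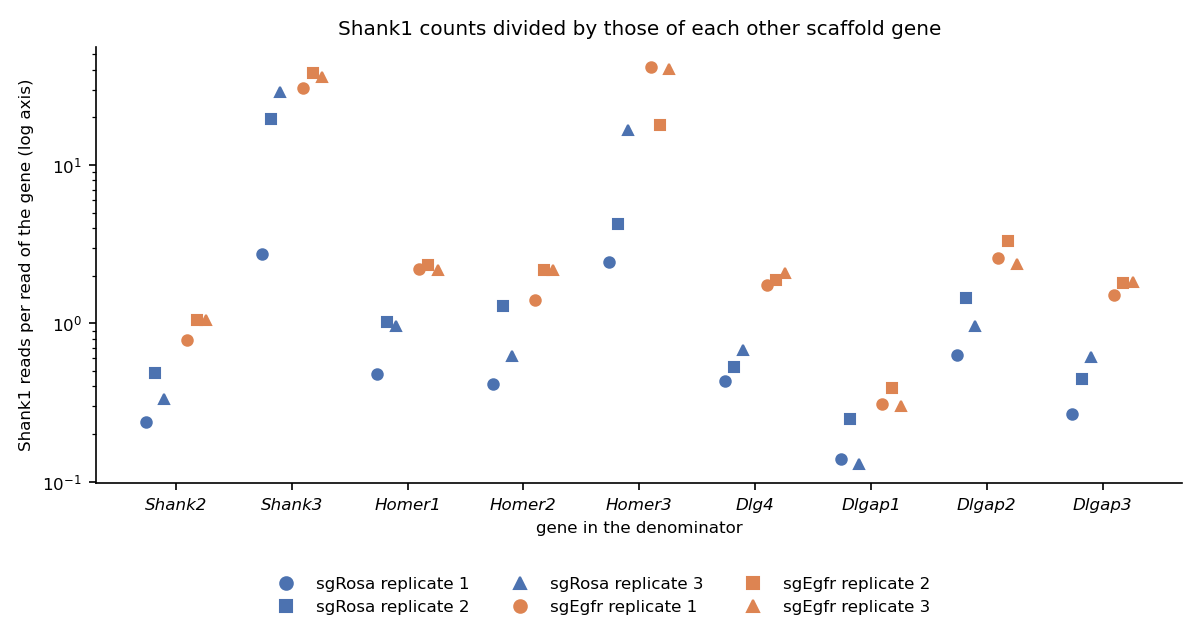
Shank1 reads per read of each other scaffold gene (vertical log axis) in each library. The sgEgfr points lie above the sgRosa points for every partner, by a wide gap for Dlg4 (1.75 and 0.675 at the nearest points) and by a narrow one for Shank3 and Homer3.

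Shank2, a second Shank platform on the same chromosome (144001928 to 144424494, plus strand), did not separate the groups. Its level was 110.2, 101 and 319.5 CPM in sgRosa and 316, 171 and 224 CPM in sgEgfr, with sgRosa replicate 3 the highest of all libraries. The log2 fold change of Shank2 was 0.42 (SE 0.48; 1.16 without sgRosa replicate 3), and its relative values ran from -0.07 to 0.42 in sgRosa and from -0.14 to 0.60 in sgEgfr. Shank2 thus stayed close to the average pan-neuronal gene in CPM, without length correction, in each library. Shank3, the family member known for its loss in Phelan-McDermid syndrome, was thinly covered, with 34, 6 and 41 counts in sgRosa and 38, 21 and 17 in sgEgfr. That gave 9.56, 2.51 and 3.69 CPM in sgRosa and 8.10, 4.69 and 6.62 CPM in sgEgfr. The 2 groups overlapped, and the highest Shank3 level was in an sgRosa library, at this depth with a log2 fold change of 0.30 (SE 0.52). Without sgRosa replicate 1 it was 1.02.

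Levels can be compared between genes only per length, here CPM per kb of GENCODE M21 exon sequence. That length joins all annotated exons of a gene and can far exceed a single transcript. It was 17.890 kb for Dlgap1, whose longest coding transcript has 4712 bases, and 4.521 kb for Dlgap3, with 4207 bases. Orders and shares between genes therefore depend on the length chosen, and comparisons of 1 gene between libraries do not. In sgRosa, Shank1 had 5.76 ± 3.91 and Shank2 16.4 ± 11.5 CPM per kb, and in sgEgfr 21.1 ± 3.56 and 22.04 ± 6.80 (SD, n = 3 each). As a share of the Shank family's CPM per kb, Shank1 made up 18.1%, 32.6% and 25.1% in sgRosa and 44.0%, 50.9% and 51.1% in sgEgfr. Shank2 made up 74.4%, 65.5% and 73.9% in sgRosa and 54.4%, 47.6% and 47.3% in sgEgfr. Shank2 was the main Shank transcript in every sgRosa library, and in sgEgfr the pair was near parity. Shank3 held between 1.00% and 7.56% in sgRosa and between 1.52% and 1.63% in sgEgfr. The exons of Shank1 share 339 bases with the opposite-strand gene 1700008O03Rik, which had 14, 11 and 75 counts in sgRosa and 65, 24 and 26 in sgEgfr. The strand setting of the counting is not given, so reads of that stretch cannot be assigned to either gene.

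**Figure D4:**
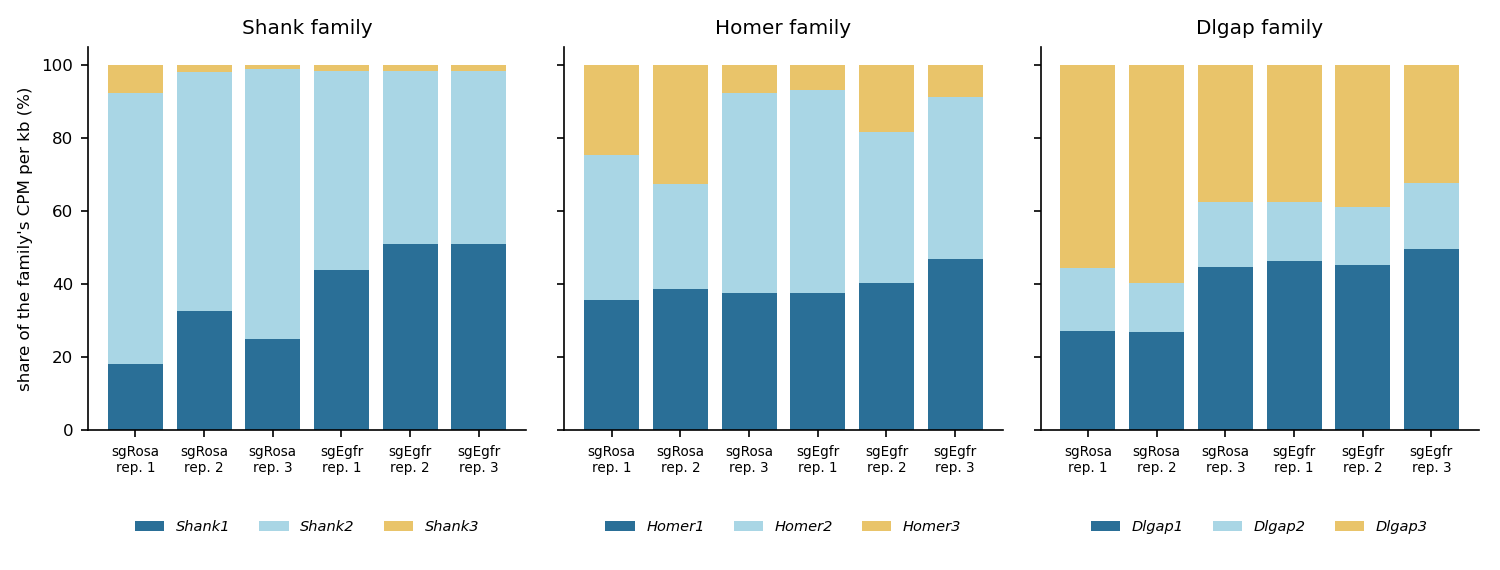
Share of each family's summed CPM per kb (vertical axis, %) held by each member in each library, in 3 panels for the Shank, Homer and Dlgap families. The Dlgap panel leaves out Dlgap4. The Shank1 share is 18.1% to 32.6% in sgRosa and 44.0% to 51.1% in sgEgfr, whereas in the Dlgap panel sgRosa replicate 3 resembles the sgEgfr libraries.

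The Homer genes encode the adaptors that tie Shank to metabotropic receptors and calcium stores. Homer1, which gives rise to long scaffold forms and to a short activity-induced form, was measured here as 1 gene, so its forms are not separated. Its level was 54.3, 48.5 and 111 CPM in sgRosa and 114, 76.5 and 109 CPM in sgEgfr. The 2 sgRosa libraries with the lowest pan-neuronal average were the lowest, and the third reached the sgEgfr range. The log2 fold change of Homer1 was 0.48 (SE 0.36). Relative to pan-neuronal genes it was nearly flat, at -0.98, -1.13 and -1.10 in sgRosa and -0.87, -0.97 and -1.18 in sgEgfr. Its spread over the 6 libraries was 2.34-fold in CPM and 1.24-fold relative to the pan-neuronal genes, the smallest relative spread of the 10.

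The promoter of Homer1 is shown because CREB, which binds the cAMP response element, is among the factors known for activity-dependent transcription in neurons. RefSeq (GRCm38.p6) had promoter entries for 7 of the 10 genes, and Homer1 had 2 of them. The first, on chromosome 13, plus strand, is given for the 150 bases before the start, chr13:93303607-93303756, with TGACG, the core of that element, in capitals.
Homer1: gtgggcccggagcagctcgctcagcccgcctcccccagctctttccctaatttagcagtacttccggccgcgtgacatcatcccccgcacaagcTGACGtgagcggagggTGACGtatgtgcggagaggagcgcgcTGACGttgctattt
In the 250 bases before that start, TGACG occurred 3 times (both strands searched), and 17.77% of 32851 RefSeq promoters held it at least once. The second Homer1 entry held it 0 times, 1 of the 3 Dlg4 entries held it 1 time, and the entries of the other 5 matched genes held it 0 times. The full element TGACGTCA, which contains TGACG, was in no entry of the 7 genes, and 1.55% of promoters held it. These are matches of letters and not measured sites.

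Homer2, a second long coiled-coil Homer, had 63.3, 38.4 and 171 CPM in sgRosa and 178, 82.6 and 109 CPM in sgEgfr. The groups overlapped over most of their range, with sgRosa replicate 3 and sgEgfr replicate 1 the highest. Homer2 had a log2 fold change of 0.43 (SE 0.55; 1.26 without sgRosa replicate 3) and a relative difference of 0.14. Homer3 was the 1 scaffold gene with a negative fitted value, a log2 fold change of -0.36 (SE 0.38), from 10.7, 11.7 and 6.39 CPM in sgRosa to 5.97, 10.04 and 5.84 CPM in sgEgfr. It was highest in the libraries poorest in neuronal RNA. Its share of the Homer family's CPM per kb was 24.6%, 32.4% and 7.52% in sgRosa and 6.86%, 18.4% and 8.72% in sgEgfr. Oligodendrocyte markers ran in a similar order, with mean log2 CPM of 11.06, 10.32 and 8.94 in sgRosa and 9.32, 10.04 and 8.43 in sgEgfr. So did inhibitory-neuron markers, with 4.45, 4.77 and 3.30 in sgRosa and 2.86, 3.68 and 3.25 in sgEgfr. The part of either list in the Homer3 values was not tested. Exons of Homer3 share 874 bases with the opposite-strand gene Ddx49, which had between 12 and 77 counts, and these reads cannot be told apart either.

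Dlg4, which encodes PSD-95, lies on chromosome 11 (70016942 to 70047522, plus strand). Its level was 60.7, 93.1 and 157 CPM in sgRosa and 143, 95.3 and 113 CPM in sgEgfr. All 3 sgEgfr libraries fell within the sgRosa range. The log2 fold change of Dlg4 was 0.17 (SE 0.36), and relative to the pan-neuronal genes the difference was -0.24. The reads of Shank1 per read of Dlg4 were thus higher in each sgEgfr library (ratios above), although within groups the 2 genes had similar deviations over the 6 libraries (r = 0.98 of log2 CPM with group means removed).

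The Dlgap genes form the layer between PSD-95 and Shank. Dlgap1 was the most abundant scaffold transcript by CPM, at 188, 198 and 817 CPM in sgRosa and 808, 457 and 787 CPM in sgEgfr. sgRosa replicates 1 and 2 were low and sgRosa replicate 3 was the highest of all 6, so its sgRosa mean of 401 ± 360.3 CPM (SD, n = 3) describes no single library. The log2 fold change of Dlgap1 was 0.77 (SE 0.60). Relative to pan-neuronal genes Dlgap1 stood at 0.81, 0.89 and 1.78 in sgRosa and at 1.95, 1.61 and 1.66 in sgEgfr. The difference of 0.58 was the highest after Shank1, with 2.30% of tested genes at least as high. It came from sgRosa replicates 1 and 2, since replicate 3 lay among the sgEgfr values, and without that replicate the log2 fold change was 1.82.

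Dlgap2 had 41.3, 34.3 and 111 CPM in sgRosa and 95.8, 54.4 and 100.1 CPM in sgEgfr, with the same sgRosa libraries low. Its log2 fold change was 0.42 (SE 0.47; 1.13 without sgRosa replicate 3). The relative difference of Dlgap2 was 0.07, and its ratio to Homer1 moved little: there were 1.31, 1.41 and 1.00 Homer1 reads per Dlgap2 read in sgRosa and 1.19, 1.41 and 1.09 in sgEgfr. Dlgap3, the family member whose loss gives repetitive grooming in mice, was the flattest in CPM. It had 97.3, 111 and 173 CPM in sgRosa and 165, 99.1 and 129 CPM in sgEgfr, with a log2 fold change of 0.04 (SE 0.31). Relative to the pan-neuronal genes Dlgap3 was at -0.14, 0.06 and -0.46 in sgRosa and -0.34, -0.60 and -0.94 in sgEgfr, a difference of -0.44 with overlapping groups. Shares were taken over Dlgap1, Dlgap2 and Dlgap3 alone, without Dlgap4. Of their CPM per kb, Dlgap1 held 27.1%, 26.9% and 44.8% in sgRosa and 46.5%, 45.4% and 49.5% in sgEgfr. Dlgap3 held 55.5%, 59.5% and 37.5% in sgRosa and 37.5%, 38.9% and 32.1% in sgEgfr. By this exon length, Dlgap3 led in the 2 sgRosa libraries with the lowest pan-neuronal average, and Dlgap1 led in the other 4. In CPM without a length, Dlgap1 was above Dlgap3 in every library.

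Ordered by mean CPM per kb in sgRosa, the 10 genes ran Dlgap3 (28.1), Dlgap1 (22.4), Shank2 (16.4), Dlgap2 (10.1), Dlg4 (7.82), Homer2 (7.21), Homer1 (5.95), Shank1 (5.76), Homer3 (2.79) and Shank3 (0.572). In sgEgfr the order of mean CPM per kb was Dlgap1 (38.2), Dlgap3 (29.0), Shank2 (22.04), Shank1 (21.1), Dlgap2 (13.6), Homer2 (9.75), Dlg4 (8.84), Homer1 (8.35), Homer3 (2.12) and Shank3 (0.704). Shank1 moved from rank 8 to rank 4, and no other gene moved by more than 2 ranks. In single libraries Shank1 ranked 9, 6 and 7 in sgRosa and 4, 3 and 3 in sgEgfr. In the sgRosa order, neighbours from Dlgap3 down to Homer3 differed by less than the larger of their SDs over libraries. In the sgEgfr order that held from Dlgap1 to Shank1 and from Dlgap2 to Homer1, with wider steps between Shank1 and Dlgap2 and from Homer1 down to Homer3 and Shank3. Shank3 was last in all 6 libraries.

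Among the 45 pairs of scaffold genes, the correlation of log2 CPM within groups over 6 libraries (group means removed) was above 0 in 32, above 0.9 in 16, and had a median of 0.84. Both genes of a pair are read from the same libraries, which differ in depth and neuronal content, and relative to the pan-neuronal genes the median was 0.24. The closest pair was Homer1 with Dlgap2 (r = 0.996). Homer3 ran against it, with r = -0.95 to Homer1 and -0.97 to Dlgap2. Relative to the pan-neuronal genes, r was 0.24 for Homer1 with Dlgap2. On that scale Homer3 had r = 0.30 to Homer1 and -0.84 to Dlgap2. Over the 6 libraries with groups kept, genes most like Shank1 among 9679 with a mean log2 CPM of at least 3 were Spred2 (r = 0.995), Sbno1 (0.995), Agap2 (0.993) and Mfsd4a (0.992). For Dlg4 they were Ift57 (r = 0.996), Fam160a2 (0.995), Fbxo21 (0.995), Ube3b (0.994) and Cep170b (0.993). For Homer1 they were Vamp2 (r = 0.9997), Mtpn (0.997), Ksr2 (0.997), Gucy1a2 (0.997) and Kalrn (0.996). These are the highest of 9679 values over 6 libraries, so high r is favoured by the choice itself. They were not taken relative to the pan-neuronal genes.

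Other genes of the postsynaptic density were read from 5 further lists, in which 0 genes passed the edgeR test. Among 12 postsynaptic kinases and small GTPase regulators, 11 had positive log2 fold changes and the median was 0.27. Cit, which encodes citron kinase, a PSD-95 partner, had 124, 160.4 and 180 CPM in sgRosa and 308, 221 and 301 CPM in sgEgfr (log2 fold change 0.84, SE 0.27). Agap2, an Arf GTPase-activating protein whose long form binds Homer, had 38.5, 48.9 and 73.5 CPM in sgRosa and 92.1, 82.6 and 98.6 CPM in sgEgfr (0.76, SE 0.28). The CPM groups of Cit and Agap2 did not overlap, beside the 5.8% of tested genes given above, while the edgeR adjusted p was 0.781 for each gene. Both were named for a small unadjusted p, so this separation adds nothing to the choice. Relative to the pan-neuronal genes the groups of Cit and of Agap2 overlapped.

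The glutamate receptors and their auxiliary subunits had positive log2 fold changes in 12 of 13 genes, with a median of 0.32. Their extremes were thinly counted: Grin2a, an NMDA receptor subunit, had a fitted value of 1.23 (SE 0.85) and 0 counts in sgRosa replicate 2, and Cacng8, an AMPA receptor auxiliary subunit, had 0.93 (SE 0.62). Grin2b had 0.65 and Cacng2 0.32. Of the 4 other PSD-95 and SAPAP family genes, 3 were positive, with a median of 0.12, from -0.33 for Dlg1 through 0.04 for Dlgap4 and 0.20 for Dlg2 to 0.44 for Dlg3. Of 12 actin and calcium-store partners, 9 were positive, with a median of 0.18, and the named ones, Abi2, Wasf1, Synpo and Ryr2, lay between 0.44 and 0.52. Of 12 other adaptors, 8 were positive, with a median of 0.34. Among those, Tanc2 had 0.68, Nlgn3 0.54, Nrgn, a calmodulin-binding protein of spines, 0.76, and Arc, an activity-induced gene, -0.62. Arc had 104, 291 and 221 CPM in sgRosa and 157, 116 and 129 CPM in sgEgfr, and these groups overlapped. Relative to the pan-neuronal genes, Arc (difference -1.01) and Dlgap4 (-0.40) were lower in sgEgfr without overlap, beside the 7.45% of tested genes and the all-gene median of -0.50 given above. Nrgn (0.46) was higher without overlap on that scale, beside the 0.745% given above. Arc and Nrgn were named for an unadjusted p among the 4 smallest of their list, so their separation adds nothing to the choice.

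**Figure D5:**
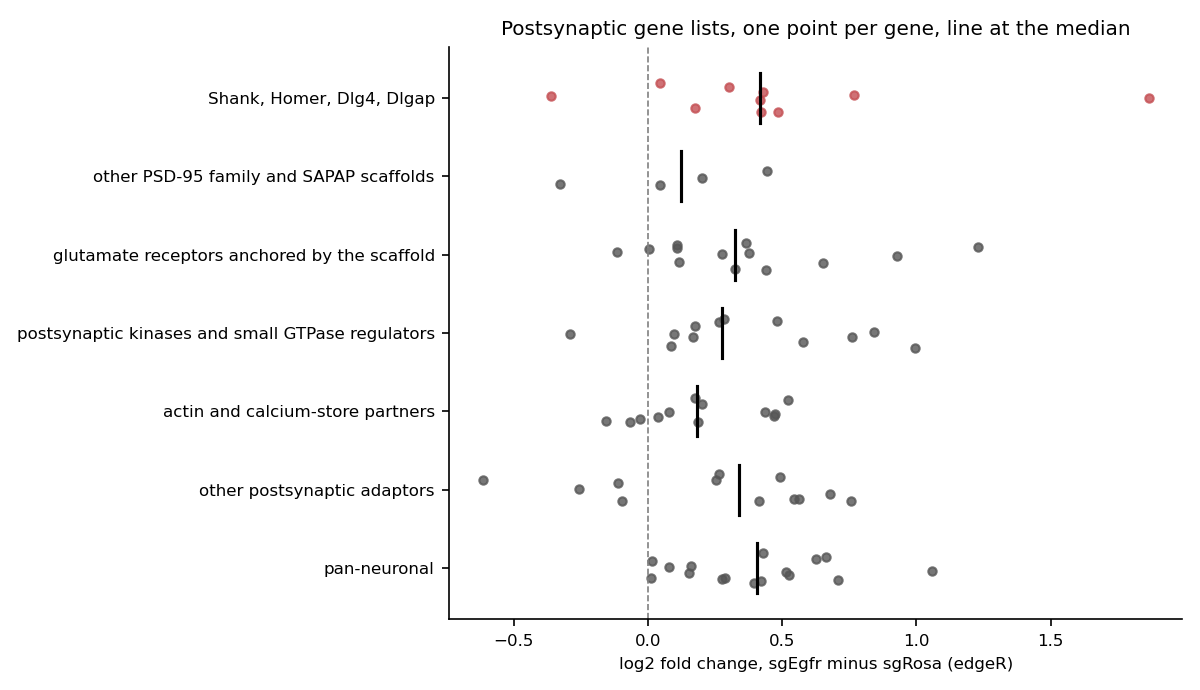
Log2 fold change of sgEgfr over sgRosa (horizontal axis, edgeR) for each gene of the scaffold set, 5 other postsynaptic lists and the pan-neuronal list, with a vertical bar at each median. The scaffold median (0.42) lies beside the pan-neuronal one (0.41), and Shank1 (1.87) is the point farthest to the right.

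Markers of other cell types gave these values beside the scaffold genes. All 12 excitatory markers had positive log2 fold changes (median 0.76), and all 8 tested of 12 inhibitory markers had negative ones (median -1.005). Summed excitatory markers spanned 139.8 to 732 CPM in sgRosa and 351 to 765 CPM in sgEgfr, and inhibitory markers 152 to 361 CPM and 117 to 240.1 CPM. Oligodendrocyte markers were negative in 10 of 10 (median -1.002), astrocyte markers in 8 of 10 (median -0.16), and microglial markers positive in 10 of 10 (median 1.36). Endothelial markers were negative in 6 of 8 (median -0.30) and choroid plexus markers in 5 of 7 tested (median -0.59). Summed levels spanned, in sgRosa and then sgEgfr, 869 to 1623 and 479.7 to 1724 CPM for astrocytes, 71.7 to 184 and 38.2 to 533 CPM for microglia, 1143 to 4486 and 1861 to 2157 CPM for endothelium, and 1712.5 to 11399 and 509.7 to 8361 CPM for choroid plexus. No marker was at 0 in all libraries, and 0 markers passed the edgeR test. As single markers, Aqp4 (astrocytes) had a log2 fold change of -0.14, Mbp (myelin) -0.20 and Ttr (choroid plexus) -0.71, with Ttr at 3052 CPM in sgRosa replicate 3 and 1852 CPM in sgEgfr replicate 1 and at most 28.1 CPM elsewhere. Without those 2 libraries the log2 fold change of Shank3 was -0.15 in place of 0.30. The part of these cell types in the scaffold values was not tested.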

How the data were processed

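RNA-seq counts of 6 libraries (3 sgRosa, 3 sgEgfr, grouped by title) were analysed. The authors deposited whole-number read counts per gene without normalization. Per the submitters' processing notes the build was mm10, and STAR 2.7.5c, featureCounts 2.0.1, fastp 0.23.2, edgeR 3.42.4, FastQC 0.11.9 and MultiQC 1.11 are named. The gene annotation and the strand setting are not given in the sources used here. Papain-digested amygdala was, per the labels' protocols, passed through an adult neuron isolation kit, and 5 ng of RNA went into each NEBNext library. In the table of the whole series, 6 columns equalled the separate tables, and 3 columns of per-sample values matched no sample and were not used.

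Genes were kept by filterByExpr (13159 of 35976), scaled by TMM and tested with edgeR 4.0.16 in R 4.3.3 (quasi-likelihood, robust, Benjamini-Hochberg over all genes, threshold 0.05), on the groups alone. DESeq2 1.42.0 and limma 3.58.1 were alternatives. Log2 CPM used a prior count of 2. The test code was tested on simulated data. Exon lengths and coding stretches came from GENCODE M21 (GRCm38), promoters from RefSeq.

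The 10 genes and all gene lists were chosen with earlier results of these data known. Named beside them are Egfr, Aqp4, Mbp and Ttr, the 4 genes of each postsynaptic list with the smallest unadjusted p, and for Shank1, Dlg4 and Homer1 the 5 genes most correlated over libraries. One gene that this rule names is not reported here. Groups of 3 were not tested for outlying libraries.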

Additional observations from a re-analysis of the deposited data

How the results depend on the processing

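DESeq2 called 31 genes higher and 2 lower, with 1 scaffold gene among them. The other 16 of 17 alternatives called 0, as did the edgeR test (limma-voom gave 1980 genes an unadjusted p under 0.05). Shank1 kept a positive log2 fold change in all 17, from 1.48 (pan-neuronal covariate) to 2.56 (without sgRosa replicate 3), with adjusted p from 0.0381 (DESeq2, 1.90) to 0.999. The median over the 10 genes, 0.42 in edgeR, was 1.01 with limma-voom, 0.0046 with the pan-neuronal covariate, 0.88 without sgRosa replicate 3 and sgEgfr replicate 1, and 0.13 (without sgEgfr replicate 1) to 1.04 (without sgRosa replicate 3) over single omissions. With the pan-neuronal covariate, signs turned for Shank2 (-0.0064), Homer2 (-0.023), Homer3 (0.016), Dlg4 (-0.14), Dlgap2 (-0.093) and Dlgap3 (-0.25). With libraries left out, Shank3 ran from -0.15 (without sgRosa replicate 3 and sgEgfr replicate 1) to 1.02 (without sgRosa replicate 1). Dlg4 ran from -0.074 (without sgRosa replicate 1) to 0.61, and Dlgap3 from -0.16 (without sgEgfr replicate 1) to 0.33, both highest without sgRosa replicate 3. Dlgap3 was also below 0 without sgRosa replicate 1 (-0.092) and without its replicate 2 (-0.0040). The causes were not tested. Relative to excitatory markers the median relative difference moved from 0.07 to -0.51 and that of Shank1 from 1.58 to 1.00; over single omissions Shank1 spanned 1.28 to 1.74. The legacy edgeR fit was added after seeing the data. Same-numbered libraries deviated with correlations of -0.03, 0.48 and 0.28, and 2 of 3 libraries in each group correlated best with their own number. With 3 libraries per group these values cannot settle whether the numbers pair the libraries. With a replicate block, 0 genes were called, Shank1 had 2.07 (adjusted p 0.490, edgeR) and the median was 0.57. Depth limits Shank3 and Homer3, with 6 to 71 counts per library.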
